A study of Salmo salar with 12 samples.

Results

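The let-7 family of Atlantic salmon (Salmo salar) was described as 10 mature miRNAs of the 5p arm, ssa-let-7a-5p to ssa-let-7j-5p (let-7a to let-7j), taken by name from a table of 361 mature miRNAs of which 180 had a count in at least 1 library. All 10 members were found in the table and all 10 passed the filter on low counts, while 0 rows were named as a 3p arm of let-7. Small RNA had been sequenced from adherent intestinal cells (AIC, 6 libraries) and from adherent head kidney cells (AKC, 6 libraries), with AKC as the reference of the study. The donors were post smolts reared in sea water and starved for a day before sampling, with no treatment or genotype that differed between the groups. Immune cells isolated from the distal intestine or the head kidney were kept at 12°C in L-15 medium for 2 days, the cells that stuck to the dish were collected, and RNA was extracted from at most 500000 of them. The whole adherent pool was used without sorting, so each library is a mixture of cell types and not a preparation of macrophages. Libraries were made from 50 ng of RNA with 25 PCR cycles.

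The let-7 miRNAs are among the most conserved miRNAs of animals. They share a seed, the short stretch at the 5′ end that pairs with target mRNAs, and differ from each other at a few bases outside it, so that the members are thought to repress overlapping sets of targets. In vertebrates they accumulate as cells leave the stem or progenitor state, the RNA-binding protein LIN28 blocks the processing of many of their precursors, and mRNAs of RAS, HMGA2, MYC and LIN28 itself are textbook targets. In immune cells of mammals, let-7 miRNAs have been tied to the control of cytokines such as IL-6 and IL-10 and of macrophage polarisation. Several let-7 genes lie in clusters with each other or with genes of the miR-99, miR-100 and miR-125 families, and the same mature let-7 sequence can come from several genes.

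Total counts ran from 2253241 to 11804738 in the AIC libraries and from 5791812 to 19586480 in the AKC libraries. At this depth, the lowest count of any member in any library was 288, and the widest 95% Wilson interval of a share was 0.129 percentage points of the library and 0.146 percentage points of the family. Such intervals take in the counting error of reads alone and leave out the spread between libraries. They also leave out that 7 let-7a counts were deposited with 3 significant digits, which rounds them by at most 0.413%. PCR copies of a molecule were counted as separate reads, so the intervals are too narrow even for the counting of molecules. By its methods the study used 6 biological replicates from 6 fish, without saying which libraries of the groups came from the same fish. Some marker miRNAs of other cells differed between the groups. The 15 rows of intestinal epithelial miRNAs (miR-192, miR-194, miR-200, miR-429) held 0.450% to 1.26% of the counts in AIC and 3.45e-05% to 0.00954% in AKC. With TMM scaling (described below), all 4 that were tested were called higher in AIC, against 17.1% of the 76 miRNAs tested. Their medians in AKC were at most 0.478 TMM-normalized CPM. They thus passed the filter on low counts through the AIC libraries, which nearly fixed the direction of these calls in advance. The 4 rows of leukocyte miRNAs (miR-142, miR-150, miR-155) held 0.147% to 1.59% in AIC and 1.19% to 3.36% in AKC, with overlap. Of these, miR-142a had a count in 2 AIC libraries and 0 AKC libraries. With TMM scaling, miR-155-5p was called lower in AIC, as were 9.21% of the miRNAs tested. The most abundant, miR-150-5p, was not called (log2 fold change -0.43, adjusted p = 0.623, edgeR quasi-likelihood test). Per let-7 count both were called lower, as were 27.6% of the miRNAs tested. Both erythroid rows (miR-144) were at 0 in every library. The endocrine marker miR-375-3p held 19.5% to 28.4% of the counts in AIC and 0.00613% to 0.0227% in AKC. The other endocrine marker tested, miR-7a-5p, was not called with TMM (log2 fold change 3.34, adjusted p = 0.124, edgeR quasi-likelihood test). It also lay higher in AIC without overlap, at 74.1 to 533 TMM-normalized CPM against 0 to 60.2 in AKC, as did 15.8% of the miRNAs tested. Outside these lists, miR-92a-3p held 5.57% to 11.6% in AIC and 25.9% to 36.1% in AKC. The part that these other cells and miRNAs have in the let-7 values was not tested. AKC library 1 stood apart, with 22.4% of its counts on ssa-miR-21b-5p against at most 8.41% in any other library.

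The let-7 family made up most of the counts in every AIC library and in 4 of the 6 AKC libraries. Its share of the library was 67.8%, 60.2%, 59.0%, 59.6%, 58.7% and 52.4% in AIC libraries 1 to 6, against 35.1%, 46.0%, 53.4%, 63.1%, 51.1% and 56.1% in AKC libraries 1 to 6. The means were 59.6% ± 4.93 in AIC and 50.8% ± 9.54 in AKC (SD, n = 6 each), and the groups overlapped, since AKC library 4 lay above all AIC libraries except AIC library 1. Without AKC library 1 the AKC mean was 53.9%. AKC library 1 had the largest total count and AKC library 4 the smallest total count of the AKC libraries. In mixed cells, fewer cells of a type and less of a miRNA per cell cannot be told apart.

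**Figure D1:**
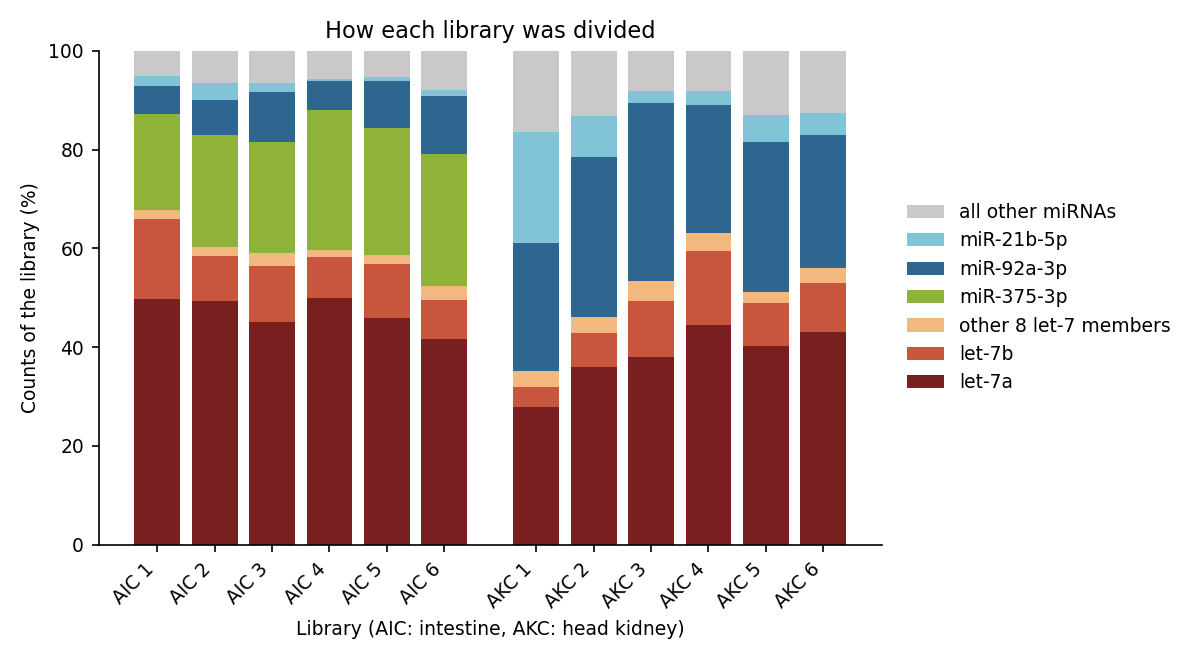
Stacked bars give the percent of the counts of each library (y axis) for let-7a, let-7b, the other 8 let-7 members, miR-375-3p, miR-92a-3p, miR-21b-5p and all other miRNAs, with the 6 AIC libraries on the left and the 6 AKC libraries on the right. let-7a is the largest block in every bar, miR-375-3p fills 19.5% to 28.4% of the AIC bars, and miR-92a-3p fills 25.9% to 36.1% of the AKC bars.

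The share of let-7 depended on whether the abundant miR-375-3p and miR-92a-3p were counted in the library. Of the counts other than miR-375-3p, let-7 held 78.7% ± 4.70 in AIC and 50.8% ± 9.54 in AKC (SD, n = 6 each). On that base the groups did not overlap, with 71.5% to 84.2% in AIC and 35.1% to 63.1% in AKC. However, miR-375-3p held 19.5% to 28.4% of the counts in AIC and at most 0.0227% in AKC. Leaving it out therefore raised the let-7 share almost only in AIC. Of the counts other than miR-375-3p and miR-92a-3p, let-7 held 88.3% ± 2.55 in AIC and 72.4% ± 13.8 in AKC, and the lowest AIC library (85.0%) lay just below the highest AKC library (85.2%). AKC library 1 was at 47.4% on that base, against 68.1% to 85.2% in the other AKC libraries, and without it the AKC mean was 77.4%, an alternative chosen after seeing the data. Per 100 mapped reads, the family had 52.8 ± 17.1 counts in AIC and 55.1 ± 8.96 counts in AKC (SD, n = 6 each). The medians lay the other way, at 59.6 in AIC and 56.4 in AKC, and AIC libraries 5 and 6, at 34.1 and 28.9, were far below the other AIC libraries. On this base the groups overlapped. Counts and mapped reads did not match in every library. AKC library 2 had 59.5 let-7 counts per 100 mapped reads but 46.0 per 100 counts, so its counts outnumbered its mapped reads. The same held for AIC libraries 2 and 4 and for every other AKC library except AKC library 3. AIC library 5 had 34.1 and 58.7, so its mapped reads outnumbered its counts, as in AIC libraries 1, 3 and 6 and AKC library 3. The measure is thus not a share of the mapped reads. No test was applied to the let-7 sum over members.

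The family was carried by let-7a and let-7b, which together held 94.4% to 97.7% of the let-7 counts in AIC and 91.0% to 95.6% in AKC. let-7a, a sequence conserved from worms to humans, was the most abundant miRNA of the whole library in all 12 libraries. let-7b ranked between 3 and 4 in every library. The other 8 members made up 3.51% ± 1.23 of the family in AIC and 6.46% ± 1.63 in AKC (SD, n = 6 each), with overlapping ranges of 2.3% to 5.58% in AIC and 4.38% to 8.96% in AKC. If the shares are turned into the number of equally abundant members that would give the same diversity (the exponential of the Shannon entropy), the family counted as 1.95 ± 0.142 members in AIC and 2.22 ± 0.153 members in AKC. These groups overlapped too, with 1.73 to 2.09 in AIC and 2.00 to 2.44 in AKC.

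**Figure D2:**
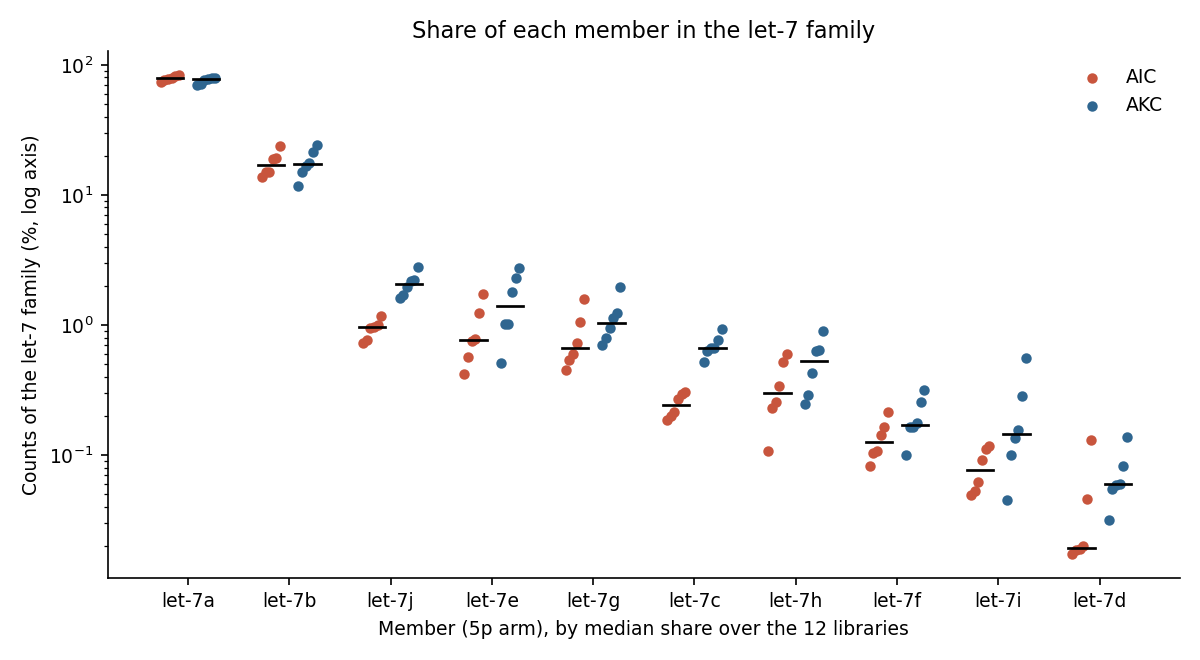
Each point is the percent of the let-7 counts of a library (y axis, log scale) held by a member (x axis, in order of its median share), AIC at the left and AKC at the right of each pair, and each bar is the median of 6 libraries. let-7c and let-7j are the members whose AIC points all lie below their AKC points; the other 8 overlap.

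The order of the members was steep, with some steps the same in every library and others within the spread. Over the 12 libraries let-7a exceeded let-7b by 4.47-fold, and let-7b exceeded let-7j, the next member, by 12.6-fold, each in 12 of 12 libraries. The latter step differed between the groups, at 18.8-fold in AIC and 8.43-fold in AKC. let-7j, let-7e and let-7g followed with steps within the spread, let-7j above let-7e in 7 of 12 libraries and let-7e above let-7g in 10 of 12. let-7g exceeded let-7c by 2.2-fold in 12 of 12 libraries. let-7c and let-7h could not be ordered, with let-7c higher in 6 of 12 libraries, 5 of these in AKC. let-7h exceeded let-7f by 2.42-fold in 12 of 12 libraries, while let-7f and let-7i, in that order in 9 of 12 libraries, lay within their spread. By group, let-7f exceeded let-7i in 6 of 6 AIC libraries (1.70-fold, beyond the spread) and in 3 of 6 AKC libraries (1.17-fold, within it). let-7d was the rarest member in 11 of 12 libraries and lay 2.49-fold below let-7i. The folds are geometric means of ratios of counts, and mature miRNAs are of like length, so no correction for length was made.

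ssa-let-7a-5p (let-7a) held 73.4% (lowest), 78.8% (median) and 83.9% (highest) of the family in AIC, against 70.3%, 77.6% and 79.4% in AKC. The groups overlapped over most of their range, and the lowest libraries were AIC library 1 and AKC library 4. ssa-let-7b-5p (let-7b), which in mammals is made from a cluster with a let-7a gene, held 13.8%, 17.0% and 23.9% of the family in AIC, against 11.6%, 17.1% and 24.0% in AKC. Its highest libraries were the same AIC library 1 and AKC library 4, and the medians of the groups were close to each other. As shares of the whole library, let-7a had 41.6%, 47.6% and 49.98% in AIC against 27.9%, 39.1% and 44.4% in AKC, and let-7b had 7.88%, 10.1% and 16.2% in AIC against 4.08%, 9.18% and 15.1% in AKC. The ratio of let-7a to let-7b was 4.67 ± 1.11 in AIC and 4.57 ± 1.40 in AKC (SD, n = 6 each).

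The mix of members was tested with edgeR's quasi-likelihood test, fitted to all 76 miRNAs that passed the filter with the let-7 total of each library as its size. In this fit a log2 fold change of 0 means an unchanged share of the family. Of the 10 members, 2 were called lower in AIC and 0 higher (Benjamini-Hochberg adjusted p below 0.05), and of all 76 miRNAs 27.6% were called lower and 10.5% higher, so the number of lower calls among members was not above that of the table. The median log2 fold change on this scale was -0.68 for the members and -0.87 for all miRNAs tested, which means that most miRNAs of the table were lower in AIC relative to let-7. The calls were let-7c and let-7j.

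ssa-let-7c-5p (let-7c), which in mammals lies in a cluster with genes of the miR-99 and miR-125 families, held 0.187% (lowest), 0.242% (median) and 0.306% (highest) of the family in AIC. In AKC it held 0.517%, 0.665% and 0.930%. Every AIC library lay below every AKC library, with the highest value in AKC library 2. Of all miRNAs tested, 30.3% had groups that did not overlap when set against the let-7 total, 19.7% with AIC below AKC. The log2 fold change of let-7c per let-7 count was -1.50 (standard error 0.31, 95% confidence interval -2.17 to -0.83, edgeR quasi-likelihood test, adjusted p = 0.00167). An exact permutation test over the 924 splits of 6 against 6 gave p = 0.00216, two-sided, the smallest these splits can give, and 0.00715 after Benjamini-Hochberg adjustment over the 76 miRNAs, of which 34.2% were lower and 11.8% higher in AIC by that test. These splits take all libraries as independent, although both groups came from 6 fish, and a split within fish was not possible without the pairing. let-7c was also the only member whose groups did not overlap as a share of the whole library, at 0.116%, 0.135% and 0.181% in AIC and 0.233%, 0.379% and 0.427% in AKC. On that measure 18.4% of the miRNAs tested lay lower in AIC without overlap.

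ssa-let-7j-5p (let-7j), a member that has no human miRNA of the same name, held 0.730% (lowest), 0.956% (median) and 1.17% (highest) of the family in AIC, against 1.62%, 2.07% and 2.80% in AKC. The groups did not overlap, and AKC library 4 was the highest. Its log2 fold change per let-7 count was -1.16 (standard error 0.25, 95% confidence interval -1.70 to -0.62, edgeR quasi-likelihood test, adjusted p = 0.00225). The exact permutation test gave the same p = 0.00216, two-sided, and 0.00715 after adjustment over the 76 miRNAs. Without AKC library 1 the log2 fold changes were -1.52 for let-7c and -1.21 for let-7j, and both members were called in all 12 fits with a library left out. let-7c was called and let-7j was not when the geometric mean of the 10 members, which gives rare and abundant members the same weight, was the scale (log2 fold change -0.78 and adjusted p = 0.0370 for let-7c, -0.49 and adjusted p = 0.266 for let-7j, edgeR quasi-likelihood test). With that scale let-7a was called higher in AIC (log2 fold change 0.78, adjusted p = 0.0256), and 21.1% of the 76 miRNAs were called lower and 14.5% higher.

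let-7c and let-7j were summed after both were seen to lie lower in AIC without overlap. Together they made up 1.18% ± 0.149 of the family in AIC, between 0.967% and 1.36%. In AKC they made up 2.77% ± 0.405, between 2.37% and 3.47%. Every AIC library lay below every AKC library, which was fixed in advance by the choice of these members. The 6 other members outside let-7a and let-7b, let-7d to let-7i, summed to 2.34% ± 1.19 of the family in AIC and 3.68% ± 1.78 in AKC (SD, n = 6 each), and here the groups overlapped widely. These 6 are the members left over by that choice, so the contrast between the sums is not a separate result.

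**Figure D3:**
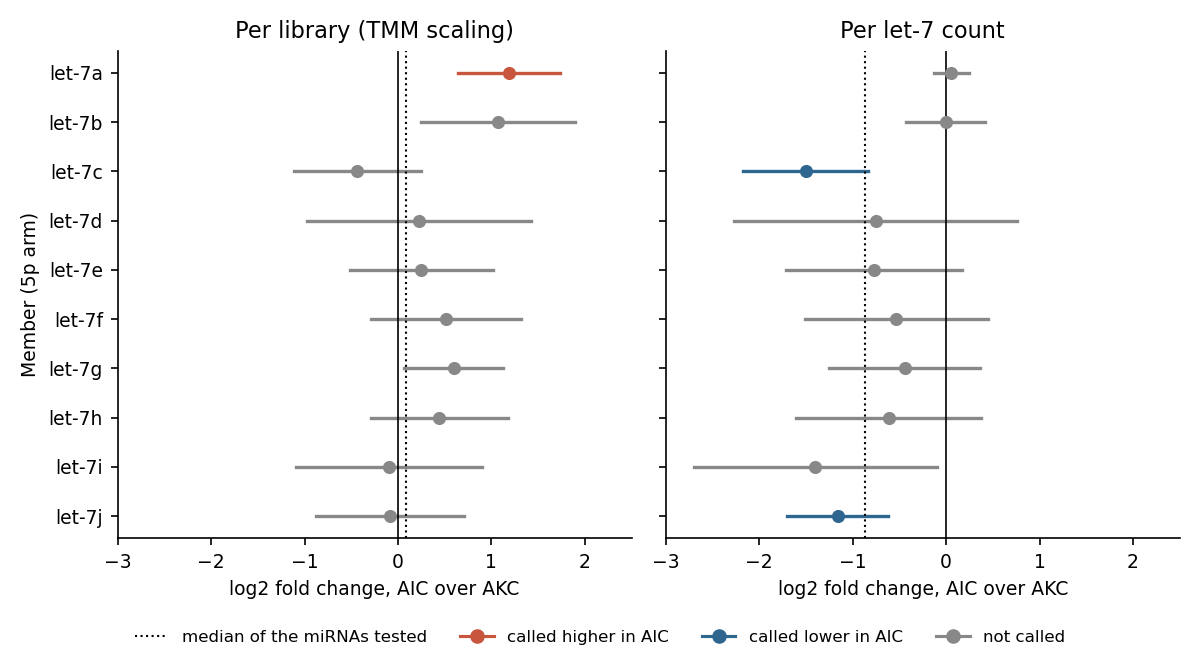
Points are log2 fold changes of AIC over AKC (x axis) for the 10 members (y axis) with 95% confidence intervals, on the left with libraries scaled by TMM and on the right with the let-7 total as the scale, and dotted lines mark the median of the 76 miRNAs tested (0.09 and -0.87). let-7a is called higher on the left and let-7c and let-7j are called lower on the right, and the order of the members is alike in both panels.

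The 6 members from let-7d to let-7i overlapped between the groups in their share of the family, and none of them was called per let-7 count. ssa-let-7e-5p (let-7e), which in mammals shares a cluster with genes of the miR-99 and miR-125 families, held 0.416%, 0.766% and 1.73% of the family in AIC (lowest, median, highest), against 0.512%, 1.40% and 2.74% in AKC. ssa-let-7g-5p (let-7g) held 0.452%, 0.664% and 1.58% in AIC, against 0.705%, 1.04% and 1.95% in AKC. ssa-let-7h-5p (let-7h), like let-7j without a human namesake, held 0.108%, 0.299% and 0.593% in AIC, against 0.248%, 0.530% and 0.899% in AKC. For these 3 members the highest AIC library was always AIC library 6 and the highest AKC library was always AKC library 1, and the groups overlapped.

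ssa-let-7f-5p (let-7f), which in mammals is transcribed with let-7a and let-7d, held 0.0829%, 0.126% and 0.213% of the family in AIC (lowest, median, highest), against 0.101%, 0.170% and 0.318% in AKC. ssa-let-7d-5p (let-7d) held 0.0174%, 0.0194% and 0.131% in AIC, against 0.0314%, 0.0595% and 0.137% in AKC. Of the AIC values of let-7d only those of libraries 3 and 6 reached the range of AKC, and AKC library 1 was again the highest. ssa-let-7i-5p (let-7i) held 0.0492%, 0.0769% and 0.118% in AIC, against 0.0447%, 0.145% and 0.559% in AKC. Both the lowest (library 4) and the highest value (library 1) of all 12 libraries were in AKC.

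The log2 fold changes of these 6 members per let-7 count ran from -1.40 for let-7i to -0.44 for let-7g, all below 0. Their adjusted p lay between 0.0858 for let-7i and 0.436 for let-7d (edgeR quasi-likelihood test, Benjamini-Hochberg adjusted), and the confidence interval reached down to -2.70 for let-7i and -2.27 for let-7d, so differences of several fold could not be told from none at this spread. With a library left out, the log2 fold change of let-7i ran from -1.61 without AKC library 4, where it was called lower (adjusted p = 0.0307, edgeR quasi-likelihood test), to -0.83 without AKC library 1, where it was not (adjusted p = 0.275). Without AKC library 1 the values of let-7d to let-7h lay between -0.53 for let-7e and -0.22 for let-7g. For let-7a and let-7b the changes were 0.06 (95% confidence interval -0.13 to 0.25) and -0.01 (-0.42 to 0.41). let-7a makes up most of the total it was set against, so its value is limited by the choice of scale.

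Some libraries stood apart in several members at once. AIC library 6 and AKC library 1 had the highest share of let-7d, let-7e, let-7f, let-7g and let-7h in their groups, and they were also the libraries with the lowest share of let-7 in all counts (52.4% and 35.1%). AKC library 4 had the highest share of let-7b and let-7j, the lowest share of let-7a, let-7d, let-7g, let-7h and let-7i among AKC libraries, and the highest share of let-7 in all counts (63.1%). AIC library 6 and AKC library 4 had the smallest total counts of their groups and AKC library 1 the largest, and the part of depth in these shares was not tested.

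Ratios between members do not depend on how a library is scaled. Of the 45 pairs of members, 4 had ratios that did not overlap between the groups, and these were the 4 pairs of let-7a or let-7b with let-7c or let-7j. Since let-7a and let-7b hold nearly all of the family, these 4 pairs largely repeat the shares of let-7c and let-7j. Against the let-7 total, 30.3% of the miRNAs tested did not overlap. The share over pairs of all miRNAs tested was not computed. The ratio of let-7b to let-7j was 15.0 (lowest), 19.5 (median) and 24.5 (highest) in AIC, against 6.83, 8.55 and 9.79 in AKC. The lowest AIC library was thus above the highest AKC library, and the means were 19.1 ± 3.49 in AIC and 8.48 ± 1.04 in AKC (SD, n = 6 each). The ratio of let-7j to let-7c, in contrast, overlapped, with 2.48, 3.73 and 6.24 in AIC and 1.74, 3.20 and 4.20 in AKC.

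The steadiest ratio over the 12 libraries was that of let-7f to let-7g, with an SD of 0.29 on the log2 scale against a median of 0.78 over all pairs and a maximum of 1.31 for let-7b and let-7i. It was 0.135, 0.169 and 0.239 in AIC (lowest, median, highest) and 0.128, 0.168 and 0.234 in AKC, and these ranges nearly coincided. let-7e and let-7h kept the next steadiest ratio (SD 0.36), at 2.19, 2.68 and 3.87 in AIC and 1.77, 2.94 and 4.07 in AKC. Members differ by a few bases, and how a read that matches more than 1 of them was assigned is not given in the sources used here, so the split between near-identical members is uncertain. The counts outnumbered the mapped reads in AIC libraries 2 and 4 and in every AKC library except AKC library 3. Whether reads were counted for more than 1 member was not tested.

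**Figure D4:**
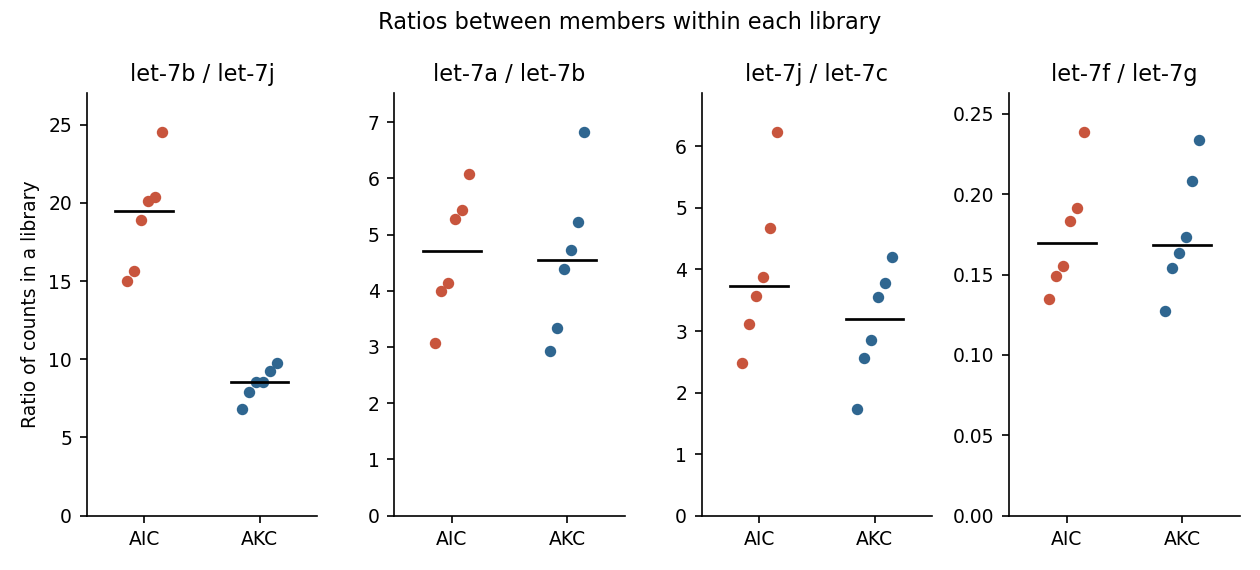
Points are ratios of counts of a pair of members in each library (y axes, starting at 0), AIC left and AKC right, and bars are medians of 6 libraries. The let-7b to let-7j ratio runs from 15.0 to 24.5 in AIC and from 6.83 to 9.79 in AKC, whereas the ratios of let-7a to let-7b, let-7j to let-7c and let-7f to let-7g overlap between the groups.

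Per library, with the TMM scaling of edgeR, which sets the bulk of miRNAs equal between libraries, 1 of the 10 members was called higher in AIC and 0 were called lower (adjusted p below 0.05 and a log2 fold change of 1 or more in either direction). Of the 76 miRNAs tested, 17.1% were called higher and 9.21% lower. The TMM factors ranged from 0.528 to 1.0 in AIC and from 1.05 to 1.79 in AKC and did not overlap, so normalized CPM (counts scaled to a library of 1000000 after TMM) are raised or unchanged in AIC and reduced in AKC relative to plain shares. The let-7 sum ran from 524286 to 1286315 CPM in AIC and from 240589 to 598954 CPM in AKC. The median log2 fold change was 0.35 for the members, 7 of them above 0, and 0.09 for all miRNAs tested.

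The called member was let-7a, with 416138 (lowest), 650899 (median) and 944020 (highest) TMM-normalized CPM in AIC, against 191046, 283472 and 421355 in AKC. The groups overlapped only at AIC library 6 and AKC library 4. Its log2 fold change was 1.19 (95% confidence interval 0.64 to 1.74, edgeR quasi-likelihood test, adjusted p = 0.00216). With a library left out, the call was lost in 7 of 12 fits. The value was 1.07, 0.92 and 0.96 without AIC library 1, 5 or 6, and 0.78, 0.98, 1.07 and 1.15 without AKC library 1, 2, 3 or 6, with adjusted p between 0.0212 and 0.0820 in the same test. Without AIC library 6 or AKC library 1 the fold change alone missed its threshold, without AIC library 1 or AKC library 3 or 6 the adjusted p alone did, and without AIC library 5 or AKC library 2 both did. Across all alternatives the adjusted p of let-7a was between 0.00216 and 0.998.

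let-7b had 78869, 134484 and 306812 TMM-normalized CPM in AIC (lowest, median, highest), against 27988, 64751 and 143634 in AKC. The groups overlapped, and its log2 fold change of 1.07 (95% confidence interval 0.24 to 1.89) missed the threshold (adjusted p = 0.0524, edgeR quasi-likelihood test, Benjamini-Hochberg adjusted). Without AKC library 4 it was called, with a log2 fold change of 1.31 and an adjusted p of 0.0368 in the same test, while without AKC library 1 the log2 fold change was 0.53 (adjusted p = 0.211) and without AIC library 5 it was 0.73 (adjusted p = 0.340).

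let-7g had 5262, 5581 and 8291 TMM-normalized CPM in AIC, against 2247, 4153 and 4988 in AKC. It was the only member whose groups did not overlap on this measure, as did not 26.3% of the miRNAs tested, 15.8% with AIC above AKC. Its log2 fold change was 0.60 (95% confidence interval 0.07 to 1.13) and missed both thresholds (adjusted p = 0.0846, edgeR quasi-likelihood test, Benjamini-Hochberg adjusted). The log2 fold changes of the other 7 members lay between -0.43 for let-7c and 0.51 for let-7f, with adjusted p between 0.368 and 0.900 in the same test, and let-7c, let-7i and let-7j were the members below 0. let-7j had 5032, 6552 and 15039 TMM-normalized CPM in AIC (lowest, median, highest), against 4100, 7291 and 16781 in AKC, so that its level per library overlapped over nearly the whole range (log2 fold change -0.09, adjusted p = 0.889, the same test) while its share of the family did not overlap. let-7c had 1408, 1914 and 2873 CPM in AIC, against 1475, 2904 and 3991 in AKC, and overlapped as well (log2 fold change -0.43, adjusted p = 0.368, the same test).

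**Figure D5:**
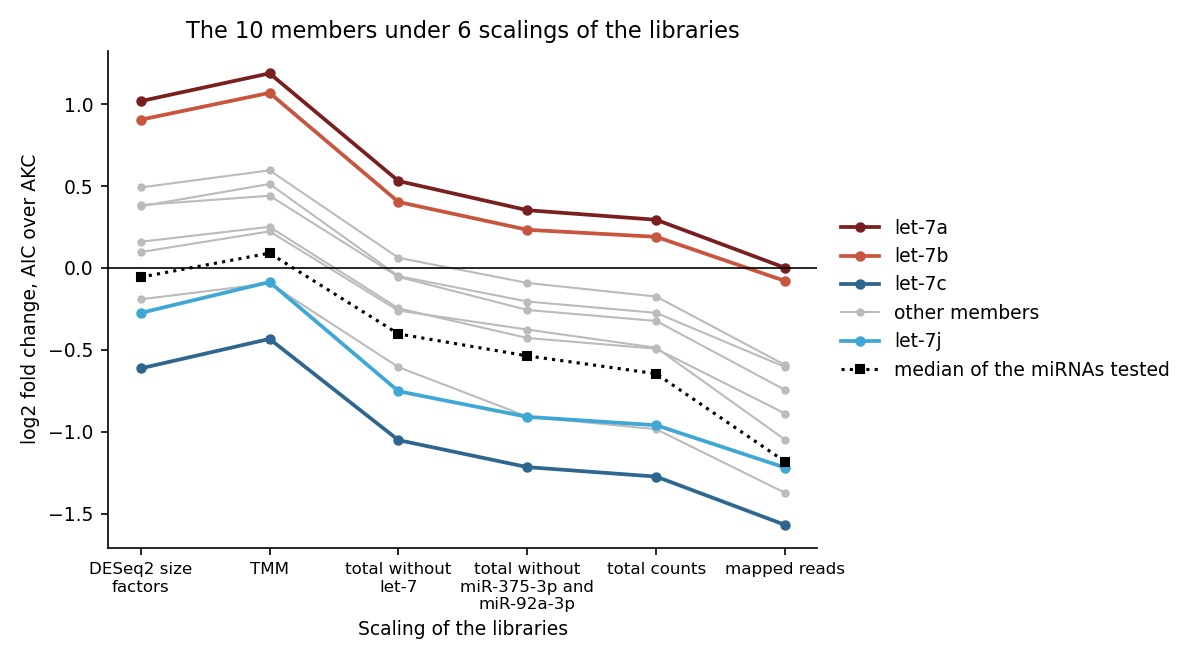
Lines join the log2 fold changes of AIC over AKC (y axis) of the 10 members under 6 scalings of the libraries (x axis), and the dotted line is the median of the 76 miRNAs tested. The whole family moves with the scaling, with let-7a at 1.19 with TMM, 0.29 with total counts and 0.0007 with mapped reads, while let-7a and let-7b stay above and let-7c stays below the other members.

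How many members were higher and which ones were called depended on the scaling of the libraries. With DESeq2's size factors 7 of 10 members lay above 0 and let-7a was called (log2 fold change 1.02, adjusted p = 0.0247, edgeR quasi-likelihood test), and 15.8% of the 76 miRNAs were called higher. With total counts 2 of 10 lay above 0, let-7a was not called (log2 fold change 0.29, adjusted p = 0.140) and let-7c was called lower (-1.27, adjusted p = 0.00222, the same test), as were 26.3% of the miRNAs. Total counts without miR-375-3p and miR-92a-3p, and total counts without let-7, also gave let-7c as the sole call, with log2 fold changes of -1.22 and -1.05, where 26.3% and 21.1% of the miRNAs were called lower. With mapped reads as library size, let-7c (-1.57) and let-7j (-1.22) were called lower, 9 of 10 members lay below 0 and the median of all miRNAs was -1.18, with 31.6% of them called lower. On none of these 4 library sizes was the share of members called lower above that of all miRNAs tested. Over the 6 scalings the sign of let-7b and of let-7d to let-7h thus changed, let-7a stayed above 0 (at 0.0007 with mapped reads), and let-7c, let-7i and let-7j stayed below 0.

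Some miRNAs of the miR-99, miR-100 and miR-125 families are made from clusters shared with let-7 genes. Of 11 rows of these families 8 had a count and 4 were tested. With TMM scaling 2 of the 4 were called higher in AIC and 0 lower, against 17.1% and 9.21% of all 76 miRNAs tested. Per let-7 count 1 was called higher and 0 lower, against 10.5% and 27.6% of all miRNAs tested. The log2 fold changes of these 4 with TMM ran from -1.20 to 2.61, with a median of 1.05, against 0.09 for all miRNAs tested. ssa-miR-125a-5p had 3110, 6037 and 10344 TMM-normalized CPM in AIC (lowest, median, highest), against 727, 944 and 1348 in AKC, without overlap. Its log2 fold change was 2.61 with TMM and 1.39 per let-7 count (adjusted p = 2.2e-05 and 0.00415, edgeR quasi-likelihood test), so that it was higher in AIC also relative to let-7. ssa-miR-100a-5p was called higher with TMM (log2 fold change 2.11, adjusted p = 0.00766) but not per let-7 count (0.60, adjusted p = 0.474, the same test). ssa-miR-125b-5p had a log2 fold change of -0.01 with TMM (adjusted p = 0.989) and -1.01 per let-7 count (adjusted p = 0.146), and ssa-miR-99-5p, with at most 137 CPM in any library, had -1.20 and -2.72 (adjusted p = 0.632 and 0.210, the same test).

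Outside the family, the miRNAs whose log2 ratio to the let-7 total had the smallest SD over the 12 libraries were ssa-miR-128-3p, ssa-miR-30b-5p and ssa-miR-125a-5p (0.75, 0.80 and 0.84). This SD pools the groups, and the ratios still shifted between them. In that order, the mean log2 ratios were -9.07, -6.22 and -7.11 in AIC and -8.15, -5.70 and -8.53 in AKC. Relative to let-7, ssa-miR-125a-5p thus lay higher in AIC and the other 2 lower. The median SD over the 76 miRNAs was 2.75, and all 10 members lay below it, at 0.08 for let-7a, 0.32 for let-7b and up to 1.08 for let-7d. That median takes in scarce miRNAs, such as ssa-miR-99-5p (mean 31.9 TMM-normalized CPM, SD 3.28). It also takes in miRNAs nearly confined to 1 group, such as miR-375-3p (SD 5.57). Every member had at least 288 counts in each library and is part of the total. Lying below the median therefore does not show that the members vary together. let-7a and let-7b make up nearly all of the total that they were set against, so their low SD is partly fixed by that choice.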

How the data were processed

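The authors trimmed and quality-filtered the reads (Cutadapt, FASTX-Toolkit), mapped them to ICSASG_v2 and quantified salmon miRNAs of miRBase with miRDeep2. They deposited estimated counts per mature miRNA and library, not scaled for library size. In 12 rows some counts had fractions, none of them (0) in let-7, and 7 let-7a counts were written with 3 significant digits, which rounds them by at most 0.413%. The mRNA libraries were not used here. Counts were rounded to whole numbers and tested with edgeR 4.0.16 in R 4.3.3 (filterByExpr, minimum count of 10, quasi-likelihood test, Benjamini-Hochberg adjustment over 76 miRNAs), scaled by TMM or by the let-7 total. Two-sided exact permutation tests used log2((count + 0.5)/let-7 total). The fits were also run on simulated counts in which equal numbers of miRNAs were raised and lowered and let-7a and let-7b were unchanged. Such counts cannot test a shift of the library in a single direction or the choice of scaling. Alternatives were other scalings (mapped reads as listed by the study among them) and filters, DESeq2 1.42.0, the replicate number as a block, and leaving out each library. Intervals are at 95%, and shares were computed with Python 3.11.15. The members, marker lists and tests were chosen with earlier results of these data known. Named are the 10 members, miR-375-3p, miR-92a-3p, up to 4 miRNAs of the miR-99, miR-100 and miR-125 families, and the 3 other miRNAs with the steadiest ratio to let-7. ssa-miR-21b-5p was named after its values were seen. miRNAs of the same seed outside the family were not analysed here.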

Additional observations from a re-analysis of the deposited data

Results flagged for a closer look

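The search covered 44 sets of 6 libraries (a member's share of the family or normalized level, or a family measure, in a group). In 4 sets a library lay far from the other 5 by the gap to its nearest neighbour. For normally distributed values chance gives this in about 1 set in 20, or 2.2 of the 44. The sets reuse the same members and libraries and are not independent, and an excess over 2.2 was not tested. let-7d in AIC library 6 made up 0.131% of the family, against 0.0174% to 0.0461% in the other AIC libraries. The same library had 685 TMM-normalized CPM of let-7d, against 137 to 289 in the others. let-7b in AIC library 1 had 306812 TMM-normalized CPM, against 78869 to 138547 in the others. let-7g in AKC library 5 had 2247 TMM-normalized CPM, against 4042 to 4988 in the others.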

How the results depend on the processing

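The 2 members called lower per let-7 count, let-7c and let-7j, were called in every alternative except the geometric mean, which gave let-7a and let-7c. In addition let-7i was called by DESeq2's Wald test (adjusted p = 0.0344) and without AKC replicate 4. The number of members called per library with TMM scaling was 0 to 2 when a library was left out. With mapped reads in place of TMM it was 2, let-7c and let-7j, both lower, and let-7a, the TMM call, was not among them. With a library left out of the TMM fit, the log2 fold changes that spanned 0 were -0.49 to 0.34 for let-7d, -0.066 to 0.47 for let-7e, -0.29 to 0.10 for let-7i and -0.62 to 0.11 for let-7j, and -0.11 to 0.10 for let-7b per let-7 count. For let-7d, let-7e, let-7f, let-7g and let-7h, in that order, the positive values of the TMM fit became -0.49, -0.49, -0.27, -0.17 and -0.32 with total counts, -0.38, -0.43, -0.21, -0.092 and -0.26 without miR-375-3p and miR-92a-3p, and -1.05, -0.89, -0.61, -0.59 and -0.75 with mapped reads, which gave let-7b -0.080. With total counts without let-7 they were -0.26, -0.25, -0.050 and -0.055 for let-7d, let-7e, let-7f and let-7h. Per let-7 count, the geometric mean gave 0.68, 0.19, 0.23 and 0.083 for let-7b, let-7f, let-7g and let-7h, and the permutation test's difference for let-7b was 0.0073. With the replicate number as a block, 1 and 2 members were called as without it, and let-7i (0.061) and let-7b per let-7 count (0.0037) changed sign. Same-numbered libraries did not deviate together (r from -0.14 to 0.07, 0 of 6 pairs above 0.1). The family's share in AIC was 58.0% to 61.1% with a library left out, 78.7% without miR-375-3p, 88.3% without miR-375-3p and miR-92a-3p and 52.8 counts per 100 mapped reads. In AKC it was 48.3% to 53.9% with a library left out and 72.4% without both miRNAs. The median of all 76 miRNAs moved from 0.09 with TMM to -0.65 with total counts and -1.18 with mapped reads. The lowest count of a member was 288, and the half-width of the Wilson interval of a member's share of the family was at most 11.6% of that share.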
